A study of Arabidopsis thaliana with 12 samples.

Results

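Untreated seedlings of the thale cress Arabidopsis thaliana were compared between 24 h and 3 h of an experiment in which a parallel set of seedlings received the volatiles of a fungus, Tolypocladium inflatum GT22. The comparison rests on 4 of the 12 libraries, 2 control libraries at each time. Genes were included when a table row named exactly 1 gene at both times and the mean of the 2 control levels was at least 1 FPKM (sequenced fragments scaled to transcript length and library depth). This left 16537 genes, out of 24792 joined between both times and 26007 seen at any time, while 8255 joined genes lay under the mean of 1 FPKM. Just inside that limit, AT3G53235 had 0.992 FPKM at 3 h and 1.01 FPKM at 24 h. Just outside it, AT5G57400 had 1.16 FPKM at 3 h and 0.836 FPKM at 24 h.

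Both control groups are whole seedlings kept without the fungal volatiles. The labels give the tissue, the treatment and the hour, and no plant line, age, growth medium, light regime or clock hour. The hour is taken from the name of each table, since no label says which table a library went into. The authors deposited 1 level per gene and group, so how far the 2 libraries of a group lie apart cannot be seen, the depth is unknown, and no test of a time difference can be made. A gene was therefore called by size, when its log2 difference of 24 h minus 3 h was at least 1, a 2-fold difference, in either direction. The 3 h and 24 h levels come from separately built and separately normalised tables. Their median log2 ratio over 16488 genes with a level above 0 at both times was -0.02, and each difference below is centred on it. A further 29 genes were listed at 0 in the 3 h controls and 20 in the 24 h controls, and these get no difference.

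Plants carry a circadian clock, a set of transcription factors that repress and activate each other in turn over the day. CCA1 and LHY act near dawn and repress the evening genes, the PRR proteins follow one another through the day, and the evening complex of ELF3, ELF4 and LUX acts around dusk. Sampling at 3 h and at 24 h lies at different distances from the start and also spans most of a day of growth. Time of day, age, time spent in the experimental set-up and the separate table of each time cannot be told apart in this comparison.

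The genes lower at 24 h held the evening element more often than all genes did, at the shares given further on. It is a promoter sequence bound by CCA1-type proteins, and several clock genes hold it close to their start. The stretches below come from the TAIR10.1 reference genome (RefSeq) and are shown because these 6 genes were called lower. Each runs 5′ to 3′ on the strand of its gene and stops before the annotated start, and capitals mark the evening element in either orientation.
TOC1, chr5:24674782-24674850, plus strand: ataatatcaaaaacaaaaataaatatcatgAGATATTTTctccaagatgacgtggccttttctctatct
LUX, chr3:17182959-17183027, plus strand: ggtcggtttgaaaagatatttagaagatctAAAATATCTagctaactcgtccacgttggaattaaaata
FKF1, chr1:25508423-25508491, plus strand: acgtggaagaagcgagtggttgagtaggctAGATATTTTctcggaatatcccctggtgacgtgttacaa
PRR5, chr5:8358695-8358763, minus strand: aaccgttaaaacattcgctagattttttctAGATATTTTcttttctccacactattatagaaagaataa
BOA, chr5:24003815-24003883, plus strand: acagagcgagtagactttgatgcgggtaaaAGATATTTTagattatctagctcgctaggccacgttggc
COR27, chr5:17199911-17199960, minus strand: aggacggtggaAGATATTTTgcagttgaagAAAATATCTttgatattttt

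Most morning clock genes, in whichever direction they differed, held another sequence, the G-box (CACGTG), which is a core site for bHLH and bZIP transcription factors. These 3 stretches are shown with the G-box in capitals because their genes had the largest differences among the morning clock genes.
CCA1, chr2:19245368-19245433, plus strand: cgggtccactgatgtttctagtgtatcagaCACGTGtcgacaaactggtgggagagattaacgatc
PRR9, chr2:19232405-19232470, plus strand: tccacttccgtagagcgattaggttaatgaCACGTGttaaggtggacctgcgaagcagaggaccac
LNK3, chr3:3923344-3923409, plus strand: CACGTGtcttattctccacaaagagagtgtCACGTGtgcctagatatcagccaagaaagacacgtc

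Across the table, 606 genes were called higher at 24 h, 3.68% of those compared, and 460 were called lower, 2.79%. Differences of at least 2 on the log2 scale were found for 114 genes upward and 72 downward. The seedlings exposed to the volatiles were sampled at the same hours and supply other libraries for the same contrast. Of the 606 higher genes, 361 (59.6%) were also at least 1 higher there, which is 2.19% of all genes compared. Of the 460 lower genes, 253 (55.0%) were also at least 1 lower there, which is 1.53% of all genes compared. The sign was the same for 575 of the 606 and for 428 of the 460. In bulk seedlings, fewer cells of a type and less RNA per cell cannot be told apart, so each difference is one of level in whole plants.

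The size of the time differences can be set against the differences between volatile-exposed and control seedlings within one table. The standard deviation over genes was 0.58 for the control time difference and 0.55 for the volatile-exposed one. It was 0.24 for volatile minus control at 3 h and 0.26 at 24 h. Differences of at least 1 were found in 6.47% of genes between times in controls, and in 0.844% and 0.849% of genes between volatile-exposed and control seedlings at 3 h and 24 h. The time differences of both sets of seedlings correlated across 16473 genes with a Pearson r of 0.82, given as a description of genes that share the same 2 tables. An error for each gene was taken from the authors' deposited statistic for volatile against control, read as fold change over error, which no file header states. This implied error had a median of 0.29, and 480 of the 585 higher genes that have one, and 367 of the 444 lower genes, lay beyond 2 implied errors. Because it comes from contrasts within a table, it holds no variation between the tables.

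**Figure D1:**
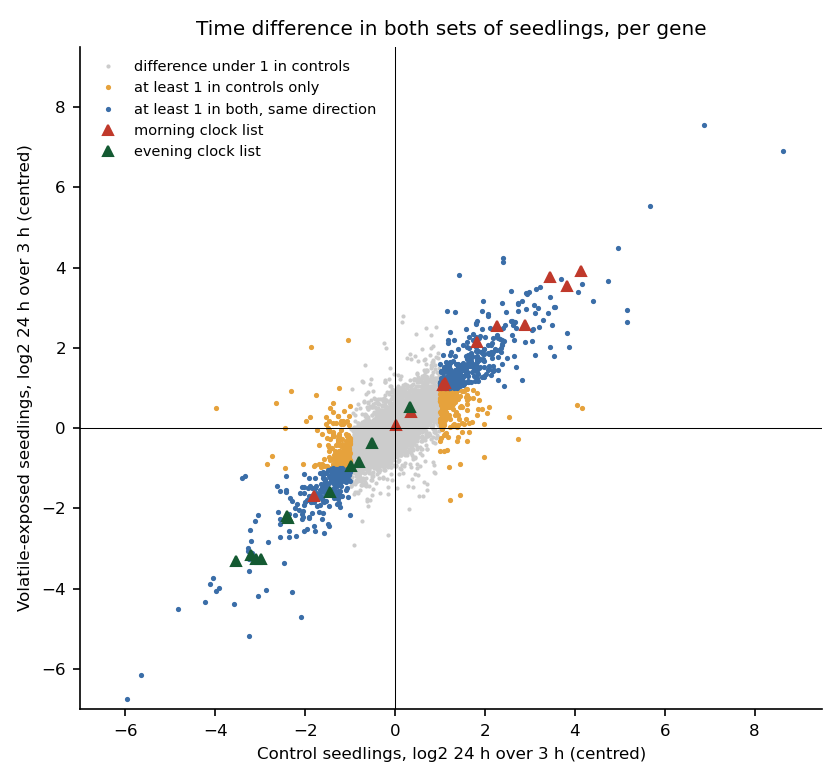
Each point is 1 gene, with its centred log2 difference of 24 h minus 3 h in control seedlings on the x axis and in volatile-exposed seedlings on the y axis. Blue points are at least 1 in the same direction in both sets (361 higher, 253 lower), orange points in controls only, and triangles are the clock lists, which lie along the diagonal.

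Calls depended on the level of a gene. Among 3978 genes with a mean of 1 to 5 FPKM, 6.18% were higher and 4.68% lower, and 50.5% of these calls were shared with the volatile-exposed seedlings. Among 6572 genes with a mean of 5 to 20 FPKM, 2.68% were higher and 1.87% lower, and 64.2% of the calls were shared. The median implied error was 0.45 in the lower of these classes and 0.30 in the other. From 20 to 100 FPKM, 2.69% of 4566 genes were higher and 2.47% lower, and 61.9% of the calls were shared. From 100 FPKM upward, 4.45% of 1372 genes were higher and 2.77% lower, and 58.6% of the calls were shared. The median implied errors of these upper classes were 0.26 and 0.25. Neither the share of genes called nor the share of calls in both sets ran in a single direction with level.

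Morning clock genes were higher at 24 h. Of the 11 members compared, 8 were called higher and 1 lower, in control and in volatile-exposed seedlings alike, and the list median was 1.83, against 0.00 for all genes. CCA1, the dawn repressor, had 1.04 FPKM at 3 h, 17.9 FPKM at 24 h and 8.92 FPKM at 48 h in controls, a log2 difference of 24 h minus 3 h of 4.13 (implied error 0.39). In volatile-exposed seedlings it had 1.04 FPKM at 3 h and 15.5 FPKM at 24 h. Its 24 h level was thus far above the 3 h level in both sets, with the control at 48 h in between. PRR9, the first PRR repressor of the day, had 0.825, 11.6 and 8.60 FPKM at 3, 24 and 48 h in controls, and its difference was 3.83 (implied error 0.43). LNK3, a member of the LNK family of co-activators, went from 1.2 FPKM at 3 h to 12.9 FPKM at 24 h and 9.28 FPKM at 48 h. RVE8, an activator of evening genes, had 1.27 FPKM at 3 h, 9.36 FPKM at 24 h and 5.67 FPKM at 48 h.

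The other members of the morning list showed smaller or no differences, with an exception. LNK2 (log2 difference 1.83), LNK4 (2.27), LNK1 (1.06) and RVE1 (1.12) were also called higher. RVE7 (0.35) and PRR7 (0.03) were not called, and PRR7 had 50.6 FPKM at 3 h and 51.0 FPKM at 24 h. RVE2 had 50.7 FPKM at 3 h, 14.2 FPKM at 24 h and 9.91 FPKM at 48 h, a difference of -1.81 (implied error 0.28), and is the one member called lower. LHY, the partner of CCA1, had no row of its own at 24 h. Its own row gave 0.577 FPKM in the 3 h controls and 2.55 FPKM in the 48 h controls, while at 24 h it shares a row with a neighbouring gene.

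Evening clock genes went the other way. Of 11 members compared, 7 were called lower and 0 higher at 24 h, again in both sets of seedlings, with a list median of -2.39. ELF4, a subunit of the evening complex, had 306 FPKM at 3 h, 35.4 FPKM at 24 h and 50.2 FPKM at 48 h in controls, and 318 FPKM and 32.3 FPKM at 3 and 24 h in volatile-exposed seedlings. Its difference of -3.09 (implied error 0.26) corresponds to a level 8.54 times as high at 3 h as at 24 h. LUX, the DNA-binding subunit of that complex, had 80.0, 15.1 and 24.8 FPKM at 3, 24 and 48 h. BOA, a close relative of LUX, had 7.44, 0.625 and 0.862 FPKM at 3, 24 and 48 h.

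The evening repressor TOC1 had 76.4 FPKM at 3 h, 14.2 FPKM at 24 h and 21.4 FPKM at 48 h, a difference of -2.40 (implied error 0.24). PRR3, which binds and stabilises TOC1, had a difference of -3.20 and PRR5 one of -1.44. FKF1, a blue-light receptor that marks flowering repressors for degradation, had 40.4 FPKM at 3 h and 5.03 FPKM at 24 h, a difference of -2.98. ELF3 (-0.99, from 33.5 to 16.6 FPKM) and GI (-0.80, from 51.4 to 29.1 FPKM) were lower in value without reaching the limit of 1. LKP2 was at -0.51, and CHE, a repressor of CCA1, was at 0.34. In no member did the volatile-exposed level differ from the control level by more than 0.16 at 3 h or 0.25 at 24 h on the log2 scale.

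The 48 h controls were read side by side. Among called clock genes with a 48 h level, that level lay between the 3 h and the 24 h levels for 8 of 9 morning members and 7 of 7 evening members. It lay nearer to the 24 h level for 9 of 9 and 6 of 7. The 48 h sampling falls a whole day after the 24 h one, and the 3 h sampling does not. Whether this plays a part was not tested. Both differences share the 3 h controls, and nearness to 24 h is not particular to clock genes. It was found for 89.7% of higher and 80.2% of lower genes called in both sets with a 48 h level.

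**Figure D2:**
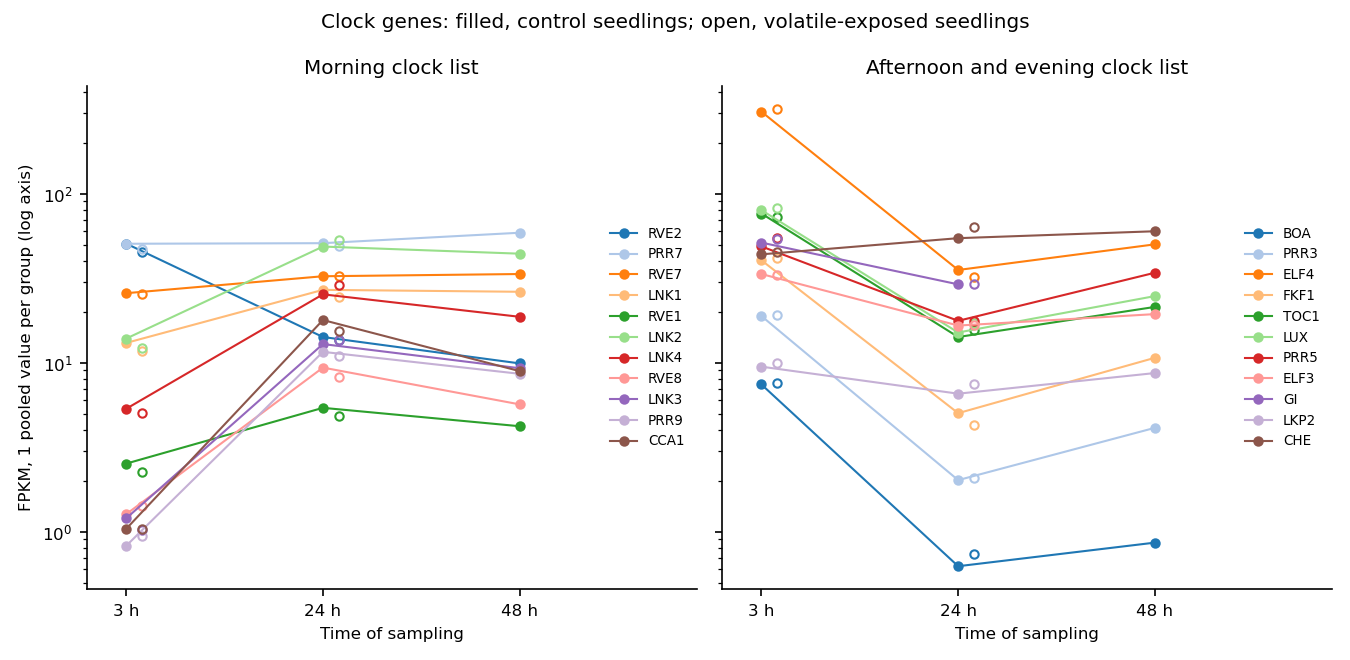
Levels of the clock genes in FPKM on a log axis, 1 pooled value per group, at 3, 24 and 48 h in controls (filled points, lines) and at 3 and 24 h in volatile-exposed seedlings (open points). Morning genes such as CCA1 lie higher at 24 h (1.04 against 17.9 FPKM), evening genes such as ELF4 lie lower (306 against 35.4 FPKM), and RVE2 runs against its list.

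Genes known as outputs of the clock had members in both directions. Of 14 clock outputs compared, 8 were called higher and 2 lower. With 2 further entries of that list whose names the reference does not give, taken by locus, 8 of 16 were higher and 3 lower, AT4G33980 being the added lower one. COR27, a cold-regulated gene that acts on the clock in the evening, had 53.3 FPKM at 3 h, 1.04 FPKM at 24 h and 2.70 FPKM at 48 h, a difference of -5.66 (implied error 0.56) and the most negative among the genes named by size. In volatile-exposed seedlings its levels were 54.2 FPKM at 3 h and 0.754 FPKM at 24 h. GRP7, an RNA-binding protein with a strong daily rhythm, had 3925 FPKM at 3 h, 1028 FPKM at 24 h and 1657 FPKM at 48 h. CDF1, a repressor of flowering that acts early in the day, had 2.06, 8.12 and 6.62 FPKM at 3, 24 and 48 h. The B-box gene BBX25 (difference 2.64), COL2 (2.1) and COL1 (1.8) were higher, and COL9, a related repressor of flowering, was lower, from 41.2 to 4.19 FPKM.

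Other genes among the 12 lowest are less well described. AT1G07050, which encodes a protein with the CCT motif found in PRR and CONSTANS proteins, had 72.8 FPKM at 3 h, 2.53 FPKM at 24 h and 7.64 FPKM at 48 h. JMJD5, a JmjC-domain protein linked to clock speed, had 38.2, 2.27 and 5.24 FPKM at 3, 24 and 48 h. AT4G33980, which the reference does not name, had 34.7, 2.26 and 5.21 FPKM at 3, 24 and 48 h. All 3 had nearly the same levels in volatile-exposed seedlings, with differences of -4.51, -3.74 and -3.98. AT1G17665 (from 15.0 to 1.61 FPKM) and AT1G07175 (from 37.2 to 3.45 FPKM) were also among them, and AT1G07175 had a smaller difference in volatile-exposed seedlings, -1.23 against -3.41.

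Promoter letters were counted in the genes called in each direction. In windows from 250 bases before to 50 bases after the annotated start, the evening element (AAAATATCT, either strand) occurred in 3.14% of all 16449 promoters read. It occurred in 52 of 459 promoters of genes lower in controls (11.3%), in 40 of 253 of those lower in both sets (15.8%), and in 15 of 71 of those lower by at least 2 (21.1%). Among genes higher in controls the share was 2.98%. Within the lists, 5 of 11 evening clock genes held it, and all 5 were called lower. Of 14 clock outputs 6 held it, of which 2 were called lower, 2 were called higher, COL2 among them, and 2 were not called. Of 11 morning clock genes 2 held it, 1 called higher and 1 not called. The related CCA1 binding site (AAAAATCT) was in 8.35% of all promoters, 9.37% of the lower set and 6.79% of the higher set.

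The G-box was in 8.88% of all promoters and in 9 of 11 promoters of the morning clock list. Of these 9 genes 7 were called higher, RVE2 was called lower and PRR7 was not called. It was in 11.4% of promoters of the higher genes and 11.5% of the lower genes, and in 12.2% and 16.2% of those called in both sets. The GATA motif (GATAAG) was in 14.7% of all promoters, in 20.5% of the lower set and 12.7% of the higher set. The telobox (AAACCCT) was in 9.34% of all promoters, 7.45% of the higher set and 6.97% of the lower set, and the DRE (GCCGAC) in 3.73%, 2.32% and 3.27%. These are shares of windows that hold the letters, with no test, and they do not show binding.

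Genes of dark and sugar starvation were lower at 24 h. Such genes respond when carbohydrate runs short and encode enzymes that break down branched-chain amino acids, transport or dormancy-associated proteins. Of 18 compared, 8 were called lower and 0 higher, 16 had a difference below 0, and the median was -0.80. DRM2, a dormancy-associated gene, had 775 FPKM at 3 h, 80.6 FPKM at 24 h and 129.5 FPKM at 48 h, and DRM1 had 288, 68.9 and 105 FPKM. DIN1, a dark-inducible senescence marker, had 93.6, 9.58 and 14.6 FPKM at 3, 24 and 48 h, a difference of -3.27 (implied error 0.34).

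Amino acid breakdown and asparagine synthesis belonged to the same group. BCAT2, which starts the breakdown of branched-chain amino acids, had 3.61 FPKM at 3 h and 0.426 FPKM at 24 h, and IVD, a dehydrogenase further along the leucine path, had 35 and 8.30 FPKM. ASN1, an asparagine synthetase of darkened leaves, had 6.73 and 1.63 FPKM at 3 and 24 h. The trehalose phosphate synthase-like genes TPS8 (-0.23), TPS10 (-0.24) and TPS11 (0.13) were not called. The 3 h levels of DRM2 (512 FPKM) and DIN1 (60.5 FPKM) were lower in volatile-exposed seedlings than in controls, and their differences to 24 h there were -3.55 and -2.98. The GATA motif was in 12 of 18 promoters of this list, beside 14.7% of all promoters. It was also in 18 of 34 promoters of the photosystem, light-harvesting and Rubisco list, which had 3 members called higher and 0 lower. A stretch from 2 of the starvation genes shows the motif in capitals, here in its reverse orientation.
DIN1, chr4:16944813-16944877, plus strand: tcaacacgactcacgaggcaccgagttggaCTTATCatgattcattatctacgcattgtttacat
DRM2, chr2:14310701-14310766, minus strand: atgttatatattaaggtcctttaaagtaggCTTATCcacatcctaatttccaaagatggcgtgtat

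Of 24 starch genes compared, 5 were called lower and 1 higher, beside 2.79% lower and 3.68% higher over all genes compared. Starch is laid down in chloroplasts by day and broken down at night. GBSS1, the granule-bound synthase that makes amylose, had 3.11 FPKM at 3 h, 36.1 FPKM at 24 h and 25.4 FPKM at 48 h, and was the one member called higher among 24 compared (difference 3.56, implied error 0.30). The 5 called lower were PWD, SEX1, SS4, ISA3 and DPE1. PWD and SEX1 phosphorylate glucan chains at the start of breakdown, and they had 83.7 and 138 FPKM at 3 h against 23.8 and 44.3 FPKM at 24 h. ISA3, a debranching enzyme, was at -1.08 and DPE1, which rearranges short chains, at -1.06, and SS4, a synthase that starts granules, at -1.35. All 6 called members were called in both sets of seedlings.

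Aliphatic glucosinolate genes were higher at 24 h in all 22 members compared, and 13 passed the limit of 1, with a median of 1.37. These genes make defence compounds of cabbage relatives from methionine. In chain elongation, BCAT4, the aminotransferase of the first step, had 16.5 FPKM at 3 h, 102 FPKM at 24 h and 107 FPKM at 48 h. MAM1, the condensing enzyme, had 25.4, 94.4 and 139 FPKM, and IPMI2 and IMD1, which act after it, had differences of 2.36 and 2.15. BAT5, the transporter that feeds the chain-elongation step in the plastid, had a difference of 1.83.

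In core synthesis, CYP79F1, which makes aldoximes from elongated methionine, had 2.13 FPKM at 3 h, 44.5 FPKM at 24 h and 46.5 FPKM at 48 h, a difference of 4.41 (implied error 0.33). CYP83A1, the next enzyme, had 19.2, 98.0 and 109 FPKM. The sulfotransferases SOT17 (1.35) and SOT18 (1.39) were called, whereas SUR1 (0.92), SOT16 (0.53) and UGT74B1 (0.25), which also serve indole glucosinolates, were not. The side-chain oxygenases FMOGS-OX1 (2.89) and FMOGS-OX3 (2.42) were higher as well. Among regulators, MYB29 went from 1.63 to 8.36 FPKM, a difference of 2.38, while MYB28 went from 37.5 to 48.6 FPKM, 0.39. MYB76 had 0.0328 and 1.16 FPKM and was under the mean of 1 FPKM.

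The seedling sets differed in level for these genes, more at 3 h than at 24 h. In all 22 the 3 h level was higher in volatile-exposed seedlings than in controls, by as much as 1.46 on the log2 scale, and in 19 of the 22 the 24 h level was higher, by as much as 0.56. The list median was 1.06 in volatile-exposed seedlings. Genes of indole glucosinolates, a related pathway that starts from tryptophan, had 0 called members of 13, a median of -0.11 and a range from -0.98 to 0.73.

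**Figure D3:**
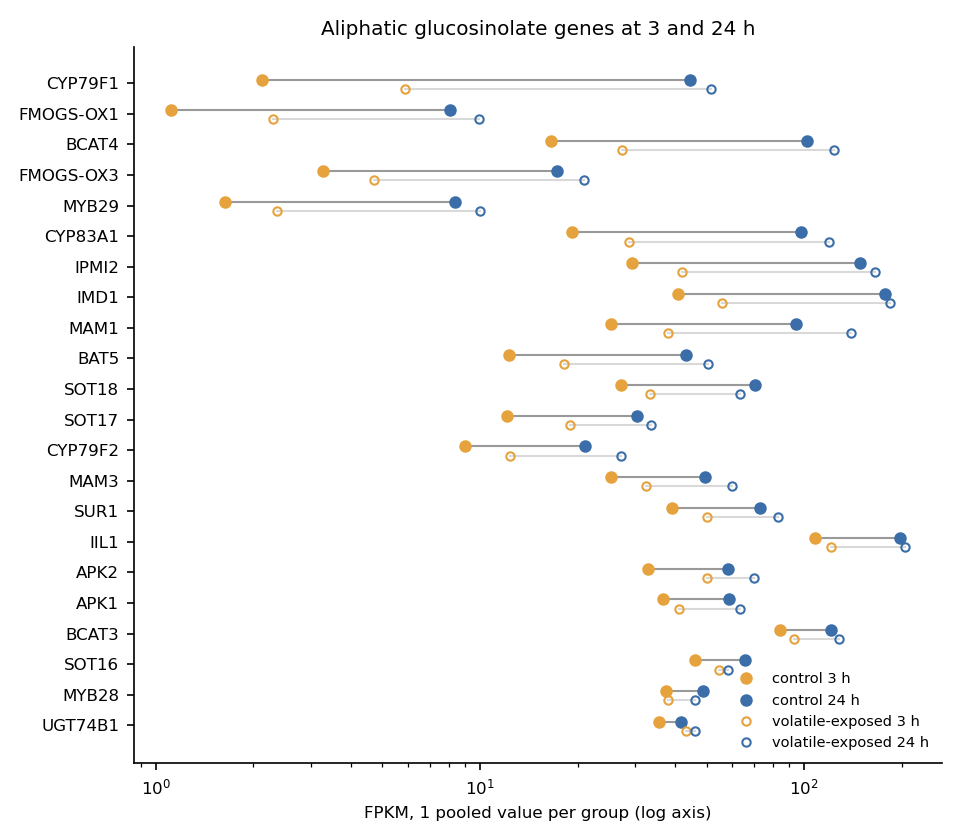
Levels of the 22 aliphatic glucosinolate genes in FPKM on a log axis, 1 pooled value per group, at 3 h (orange) and 24 h (blue), filled for control and open for volatile-exposed seedlings. Every control line runs to the right from 3 h to 24 h, from 2.13 to 44.5 FPKM for CYP79F1, and the open 3 h points lie to the right of the filled ones.

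Light-harvesting and chlorophyll lists both had called members. Over all genes compared, 3.68% were called higher and 2.79% lower. Of 34 photosystem, light-harvesting and Rubisco genes compared, 3 were called higher and 0 lower, with a median of 0.12. They are light-harvesting genes of photosystem II: CAB2 (from 1670 to 5272 FPKM), LHCB2.2 (from 1088 to 2944 FPKM) and LHCB2.1 (from 1609 to 4060.1 FPKM). These genes have near-identical copies between which reads can be split, and the other copies CAB1 (0.23) and CAB3 (0.15) were not called. RBCS1A, a Rubisco small subunit, had 20738 FPKM at 3 h and 16091 FPKM at 24 h.

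Of 14 genes of chlorophyll synthesis and breakdown, 4 were called higher and 2 lower, and 3 and 2 of these were called in both sets. GUN4, a regulator of magnesium insertion, had 82.2, 378 and 294 FPKM at 3, 24 and 48 h. HEMA1, which controls entry into the pathway, had 46.1, 202 and 139 FPKM. CHLH (1.22), the subunit bound by GUN4, and CAO (1.66), which makes chlorophyll b, completed the 4. NYC1 and HCAR, which convert chlorophyll b back to a, were lower, with 212 and 29.3 FPKM at 3 h against 51.2 and 11.3 FPKM at 24 h.

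Some touch, cold and wound genes were higher at 24 h. Of 19 compared, 7 were called higher and 1 lower, and the median was 0.92. TCH4, a touch-induced wall enzyme, had 7.87 FPKM at 3 h, 50.5 FPKM at 24 h and 42.7 FPKM at 48 h. ERF105 had 0.922 and 7.67 FPKM at 3 and 24 h. CAF1A, which shortens mRNA tails, had 4.52, 19.1 and 27.8 FPKM at 3, 24 and 48 h, and the zinc finger repressor ZAT10 had 5.89, 22.7 and 34.6 FPKM. The one lower member, CBF3, an activator of cold acclimation, had 2.31, 0.388 and 0.912 FPKM, while its neighbour CBF2 had 0.835 and 1.55 FPKM at 3 and 24 h, a difference of 0.91. Dehydration and cold-acclimation targets had 5 members lower and 1 higher of 20, beside 2.79% lower and 3.68% higher over all genes compared. Of these calls, 4 lower and 0 higher were shared with the volatile-exposed seedlings. KIN2 had 425 and 151 FPKM, KIN1 58.5 and 15.9 FPKM, and COR15A 9.48 and 2.27 FPKM at 3 and 24 h. KIN1 and KIN2 are close copies, as are COR15A and COR15B (12.6 and 2.32 FPKM).

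Iron genes had members in both directions. Of 20 compared, 4 were called higher and 5 lower. With entries of the list whose names the reference does not give, taken by locus, 4 of 23 were higher and 7 lower, and the median was -0.64 in place of -0.36. The 2 added lower ones, AT1G47400 and AT2G30766, had 23.9 and 87.9 FPKM at 3 h, 5.78 and 25 FPKM at 24 h, and 28.6 and 99.6 FPKM at 48 h. At 48 h, 5 of the 9 called members with a name were nearer to their 24 h level, and 2, FER1 and BHLH101, were within 0.5 of their 3 h level. Control levels of FER1, an iron-storing ferritin and the only ferritin called, were 108, 443 and 147 FPKM at 3, 24 and 48 h. In volatile-exposed seedlings they were 66.0, 463 and 143 FPKM. FER2 and FER4 each share a row with a neighbouring gene at 3 and 24 h. In controls these rows had 3.48 and 107 FPKM at 3 h and 4.38 and 146 FPKM at 24 h. The transcription factors of iron deficiency ran the other way, and BHLH100 has no implied error since it was not tested in both tables. BHLH100 had 3.97, 0.226 and 2.11 FPKM at 3, 24 and 48 h, BHLH101 had 3.07, 0.620 and 3.17 FPKM, and PYE had 21.1, 8.80 and 13.4 FPKM. BHLH38 (-1.38) was called lower too, while BHLH39 (-0.86) and the ligase BTS (-0.99) stayed under the limit.

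Root uptake genes did not move together. IRT1, the main iron carrier, had 32.4 and 31.1 FPKM at 3 and 24 h, FIT, its activator, 18.6 and 15.9 FPKM, and FRO2, the root iron reductase, 13.1 and 6.44 FPKM, a difference of -1.01. COPT2, a copper carrier, had 29.9, 125 and 94.1 FPKM at 3, 24 and 48 h and stayed nearer to its 24 h level. F6'H1 (1.07) and CYP82C4 (1.08), enzymes of root coumarins, were called higher in controls and had 0.58 and -0.17 in volatile-exposed seedlings.

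**Figure D4:**
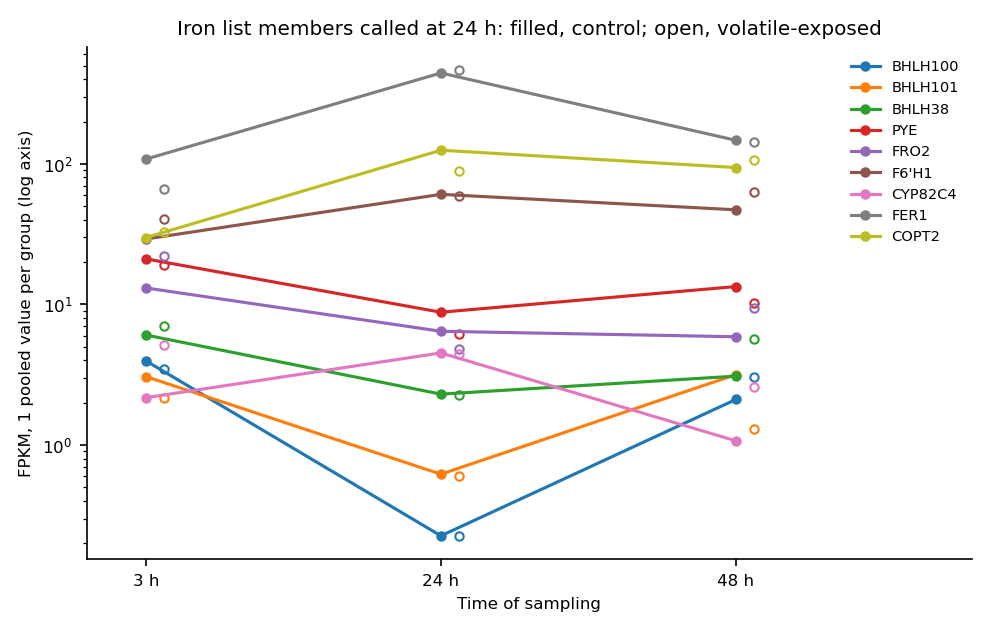
Levels of the 9 iron list members called at 24 h in FPKM on a log axis, 1 pooled value per group, at 3, 24 and 48 h, filled with lines for control and open for volatile-exposed seedlings. FER1 peaks at 24 h (443 FPKM) and BHLH101 and BHLH100 dip at 24 h (0.620 and 0.226 FPKM).

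Most called genes stayed nearer to their 24 h level. Of 359 genes higher in both sets that have a 48 h control level, 322 (89.7%) were nearer to the 24 h than to the 3 h level at 48 h, and 21 were within 0.5 of the 3 h level. Of 248 lower genes, 199 (80.2%) were nearer to the 24 h level and 24 were within 0.5 of the 3 h level. Genes chosen on the volatile-exposed seedlings alone gave medians in controls of 1.33 at 24 h and 1.18 at 48 h for 510 higher genes. For 399 lower genes the medians were -1.19 and -0.93. The 24 h and 48 h differences share the 3 h controls, so their nearness is partly built in.

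AT1G07901, an uncharacterised gene, was near its 3 h level again at 48 h, with 1.57 FPKM at 3 h, 48.2 FPKM at 24 h and 1.96 FPKM at 48 h. In volatile-exposed seedlings it had 1.53, 33.6 and 1.8 FPKM at the same times. CAT2, a catalase of leaf peroxisomes, had 196, 420.2 and 255 FPKM, and the starch enzymes ISA3 and DPE1 also came back to within 0.5 of their 3 h level. Of 6 called starch genes, 3 were nearer to the 3 h level at 48 h, a pattern given here as a count only.

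In the growth and hormone lists, many calls were not shared with the volatile-exposed seedlings. Over all genes compared, 3.68% were called higher and 2.79% lower. Of 23 auxin response genes, 6 were called higher and 0 lower, 3 of them in both sets, with SAUR15 at 3.05 and 13.2 FPKM, SAUR19 at 0.327 and 2.77 FPKM, and IAA5, a repressor of auxin responses, at 0.389 and 2.21 FPKM at 3 and 24 h. IAA5 had a difference of 0.27 in volatile-exposed seedlings, and SAUR19 has no implied error. Among 25 cell wall loosening genes, 5 were higher and 1 lower, led by the expansin EXPA8 (from 20.8 to 61.4 FPKM), with 2 of the higher ones called in both sets. In the jasmonate list, 5 of 18 were higher and 1 lower, and 1 higher and 1 lower were called in both sets. The higher member called in both was the repressor JAZ6 (from 9.35 to 28.5 FPKM). PDF1.2A had 0.160 and 3.56 FPKM in controls and was listed at 0 in the 3 h volatile-exposed seedlings. Gibberellin and brassinosteroid genes had GASA6 higher (from 115 to 265 FPKM), and GA2OX2 (from 4.76 to 1.33 FPKM) and BAS1 (from 5.76 to 2.24 FPKM), enzymes that inactivate these hormones, lower, with none called in both sets.

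The called heat shock genes were small chaperones, lower at 24 h except AT5G51440, which had 4.38 and 9.21 FPKM at 3 and 24 h. HSP17.4 had 13.8 FPKM at 3 h, 0.856 FPKM at 24 h and 0.401 FPKM at 48 h, and HSP17.6II had 15.4, 3.54 and 0.246 FPKM. In the heat shock list, 3 of 15 members were lower and 1 higher, and AT2G29500, an HSP20-like chaperone among the 12 lowest genes, had 83.1, 8.60 and 9.59 FPKM. HSP17.4 has an implied error of 1.84 beside a difference of -3.99. Of 18 flavonoid genes, 4 were higher in both sets and 2 lower in controls, led by DFR, a step towards anthocyanins (from 1.16 to 4.79 FPKM). In light signalling 2 of 18 were higher, ELIP2 (from 27.1 to 80.1 FPKM) and the growth factor PIF5 (from 23.4 to 51.5 FPKM), and RUP1 was lower (from 12.6 to 5.48 FPKM). Of these light signalling calls, 1 higher and 0 lower were shared with the volatile-exposed seedlings.

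Nutrient and defence lists gave single genes, beside 3.68% higher and 2.79% lower over all genes compared. The lists below with 1 call among 23 or 24 genes are near that higher share. The phosphate starvation RNA IPS1 (from 2.75 to 10.5 FPKM) and the phosphatase PEPC1 (from 4.60 to 13.0 FPKM) were the 2 called of 17. In sulfur supply, SULTR2;1 (1.40) and APR2 (1.03) were higher and LSU1 (-1.35) lower of 13. GLN1;2, a glutamine synthetase, was the only member called of 23 in nitrate and ammonium assimilation, from 492 to 1011 FPKM. Of 12 salicylic acid and immunity genes, AIG1 (from 0.166 to 2.30 FPKM), WRKY70 (from 1.47 to 3.99 FPKM) and PR5 (from 3.98 to 10.4 FPKM) were higher. CDC20.1 (1.15) was the one called of 24 cell cycle genes, whose median was 0.35, and SAG29 (1.36) and GLN1;4 (1.12) were the 2 called of 7 senescence genes. In volatile-exposed seedlings GLN1;2 (0.71), CDC20.1 (0.93), SAG29 (0.41) and GLN1;4 (0.20) were all under the limit, so 0 of these 4 calls were shared.

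The lists of 15 reference genes, 11 cytokinin response genes, 10 low-oxygen genes, 14 root markers and 7 leaf guard cell and stomatal markers had 0 called members, with medians of 0.02, 0.29, 0.22, -0.09 and -0.10. The seedling label was checked against tissue markers. The summed level of the photosystem list was 140287 and 138068 FPKM, and that of the root markers 2599 and 2358 FPKM, of which the root gene PYK10 gave 2359 and 2113 FPKM. None of 15 seed markers reached a mean of 1 FPKM. Their summed level was 9.75 FPKM at 3 h and 2.06 FPKM at 24 h, and 3 were listed at 0 at each time. Their part in the results above was not tested. Of 7 flower markers, SEP3 was compared, with 2.47 and 5.74 FPKM.

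**Figure D5:**
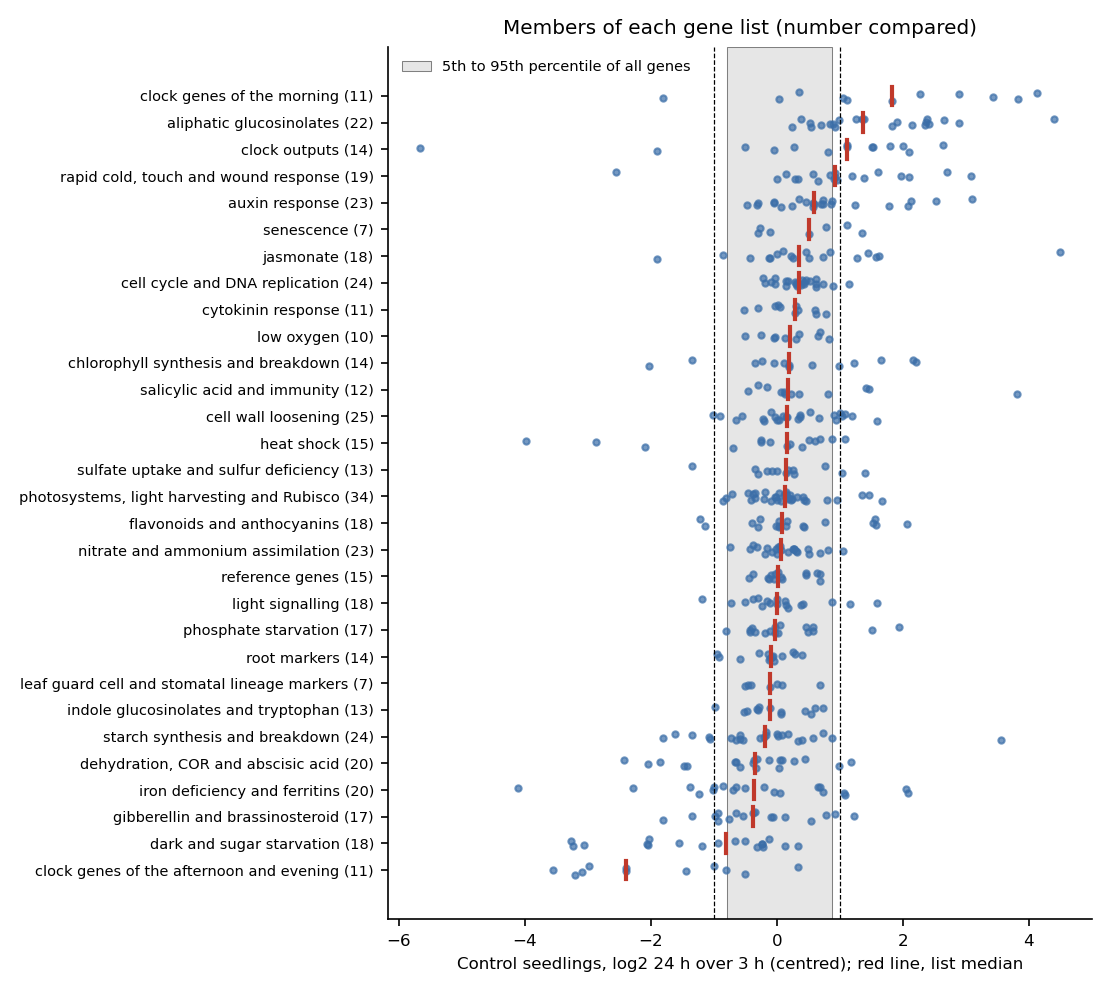
Centred log2 difference of 24 h minus 3 h in control seedlings for every compared member of each list (points) with the list median (red line), against the 5th to 95th percentile of all genes (grey) and the limits of 1 (dashed). The evening clock (median -2.39) and morning clock (1.83) lists stand at the ends, with the aliphatic glucosinolate list (1.37) next to the morning list.

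Among the 12 genes named for the largest increase in level, AT1G73890, a lipid-transfer-like protein, had 0.269 FPKM at 3 h, 105 FPKM at 24 h and 96.1 FPKM at 48 h. Its difference of 8.63 has an implied error of 4.36, and in volatile-exposed seedlings it had 0.730 and 86.4 FPKM. GSTF14, a glutathione transferase, had 2.60, 27.1 and 28.7 FPKM at 3, 24 and 48 h. AT5G37990, a methyltransferase by annotation, had 2.09, 24.1 and 28.4 FPKM, AT1G67865 1.70, 18.3 and 25.6 FPKM, and AT1G13650 1.26, 22.2 and 11.3 FPKM. Each of these genes had a difference of at least 2.03 in volatile-exposed seedlings as well.

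A few strong control differences were missing from the volatile-exposed seedlings. AT2G16005, which encodes a lipid recognition domain, had 0.908 FPKM at 3 h and 14.8 FPKM at 24 h in controls, against 1.70 and 2.51 FPKM in volatile-exposed seedlings. AT2G44800, an oxygenase by annotation, had 1.38, 24.2 and 0.776 FPKM in controls at 3, 24 and 48 h, against 0.824 and 1.14 FPKM at 3 and 24 h. AT3G21352 (from 12.1 to 0.753 FPKM in controls, from 5.51 to 7.61 FPKM in volatile-exposed seedlings) and AT1G79170 (from 9.55 to 1.51 FPKM and from 4.22 to 6.35 FPKM) ran in opposite directions. AT2G40205, a ribosomal protein gene, had 857 FPKM in the 3 h controls and 126 FPKM at 24 h, against 163 and 98.2 FPKM, and SAUR24 had 3.25 and 13.6 FPKM against 10.8 and 15.4 FPKM. The 2 time differences lay at least 1 apart in 272 genes, 1.65%, and these gaps between sets were not tested.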

How the data were processed

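The submitters' processing notes name Trimmomatic 3.6, TopHat and the build TAIR10, with no settings or order. FPKM values, 1 per gene and group, were deposited by the authors in a table per time, by a tool that no header or note names. The test statistic, a score for volatile against control, is the authors' deposited value. Rows naming 1 gene were joined on locus (where a gene had several, a tested row first, then the most abundant), log2 ratios of 24 h over 3 h were centred on their median, and no pseudocount was used, with Python 3.11.15 and pandas 2.3.3. No model was fitted, since there is 1 value per group. The implied error is the root of the mean of the 2 tables' squared errors, each the log2 fold change over the statistic, and assumes equal error in both groups. The centring and calling step was tested on simulated data, a 24 h column made from the 3 h levels with a known scaling shift and known differences.

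The 32 gene lists (622 of 637 entries matched the reference annotation TAIR10.1), the members and the motifs were chosen with earlier results of these data known. Genes named are the 12 largest in each direction among those called in both sets with a mean of at least 5 FPKM, all clock members, up to 4 called members of each other list, and 6 control-only differences. Further list members, and GRP7, were named after their values were seen, to complete a pathway. Promoters were read at the bounds of TAIR10.1. All rows with an annotated locus overlapped it there. Labels do not say that libraries came from separate cultures. Unmapped columns with values of a sample numbered 0.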

Additional observations from a re-analysis of the deposited data

Results flagged for a closer look

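5 genes were called in opposite directions in control and volatile-exposed seedlings. The difference between the sets was not tested, there is no value per library behind it, and none of their control levels was above 5.71 FPKM. AT3G02242 had 5.71 and 1.54 FPKM at 3 and 24 h in controls, a log2 difference of -1.87, and 0.903 and 3.61 FPKM in volatile-exposed seedlings, 2.03. AT1G70860 had a difference of -1.24 in controls and 1.01 in volatile-exposed seedlings. IDL3 (AT5G09805) had -1.04 and 2.19, from 3.39 to 1.63 FPKM and from 0.519 to 2.32 FPKM. EDA6 (AT3G23440) had 1.22 and -1.79, and AT5G54165 had 1.45 and -1.66.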

How the results depend on the processing

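No paired analysis was possible because each table gives pooled groups and no single library, and leaving out each replicate was not run for the same reason. The counts of 606 higher and 460 lower genes were 578 and 485 with no centring, 583 and 484 centred on reference genes, 568 and 483 after quantile normalization. They moved with the cut-offs: 446 and 301 with a pseudocount of 1 FPKM, 355 and 280 at a mean of at least 5 FPKM, 1073 and 928 with no filter. A lower limit, 1.5-fold, gave 1758 and 1532, a limit of 2 gave 114 and 72, and requiring the volatile-exposed seedlings too gave 361 and 253. In place of controls, those seedlings gave 514 and 408, and list medians of 2.15 (morning clock), 1.06 (aliphatic glucosinolates), -0.26 (heat shock), -0.22 (sulfur), 0.58 (cytokinin) and 0.20 (senescence). At a mean of at least 5 FPKM the medians were -1.92 (evening clock), -0.05 (iron) and 0.20 (senescence). With no filter the flower marker median (1 member before) reversed to -0.11 as members under 1 FPKM were added. Taking every list entry by locus, whether or not the reference names it, was added after the data were seen and gave a morning clock median of 1.48. Of 319 list medians under an alternative, 308 moved by less than the median implied error of 0.29. Of 1115 values of named genes, 84 moved by more than their implied error (0.29 where a gene has none), 48 of them in the volatile-exposed seedlings and 33 with the pseudocount. Settings that only filter genes or change the centring leave a gene's own levels as they are, so little movement was possible under them. AT1G79170 (0.62) and AT3G21352 (0.50) reversed in the volatile-exposed seedlings. The cause was not tested. Depth is unknown, so small differences in weakly expressed genes cannot be weighed. A level of 0 can be a failed estimate, and rows that merge genes left LHY, RVE4 and ZTL out.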

Other observations

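Gene families were counted by their annotated product after the values had been seen, so these counts get no test. Of 20 B-box zinc finger genes, regulators of light responses and flowering, 9 were higher at 24 h and 3 lower, and 8 and 2 of these were called in both sets. BBX16 had 0.333 FPKM at 3 h, 8.70 FPKM at 24 h and 8.33 FPKM at 48 h, and BBX18 had 3.69, 17.9 and 14.3 FPKM. BBX8 ran the other way, with 33.7, 8.10 and 11.8 FPKM. Of 55 SAUR-like genes, short-lived auxin-induced growth genes, 22 were higher and 3 lower, with a median of 0.71. Of these calls, 16 higher and 1 lower were shared with the volatile-exposed seedlings, where the median was 0.51. On chromosome 5, the neighbours SAUR19, SAUR20, AT5G18030 and SAUR24 were called higher (3.1, 1.79, 1.57 and 2.09), and SAUR22 (0.58) and SAUR23 (0.71) were not. In volatile-exposed seedlings SAUR24 had a difference of 0.54 and SAUR23 one of 1.43, and SAUR24 has an implied error of 1.5. These SAUR genes are close copies between which reads can be split.

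Of 53 genes annotated as bifunctional inhibitor or lipid-transfer proteins, 13 were higher and 5 lower. A group of 7 of them lies on chromosome 4, between 11838960 and 11858970 in TAIR10.1, and genes of other kinds between them were not looked for. AT4G22517 had 39.0 FPKM at 3 h, 377 FPKM at 24 h and 359 FPKM at 48 h, AT4G22485 had 15.1, 138 and 96.2 FPKM, and AT4G22505 had 20.6, 135 and 111 FPKM. AT4G22490 (1.82), AT4G22513 (2.19) and AT4G22520 (2.14, implied error 1.49) were also called higher in both sets, while AT4G22460 at the edge of the group was at -0.15.

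Genes outside the iron list were also near their 3 h level again at 48 h, and were chosen after their values were seen. In controls at 3, 24 and 48 h, AT2G14247 had 46.0, 9.70 and 44.8 FPKM. ORG1 had 73.4, 20.9 and 59.6 FPKM. AT1G76800, a vacuolar iron transporter by annotation, had 4.58, 9.99 and 5.23 FPKM, like FER1 highest at 24 h.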
